A study of Homo sapiens with 16 samples.

Results

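The genes described here are 8 keratins, KRT7, KRT8, KRT17, KRT18, KRT19, KRT20, KRT23 and KRT80, taken by symbol from 28167 gene symbols measured in 2 gastric cancer cell lines. Polyadenylated RNA of SNU719 and YCC10, both established EBV-positive gastric carcinoma lines, was sequenced in 16 libraries after knockdown of the transcription factor MYB or of TCF7, a transcription factor of the WNT pathway. The question the study's design text poses is what MYB and TCF7 do in these cells. The libraries form 3 sets, each with its own controls in both lines. In the MYB set, siRNA against MYB (siMYB) was compared with control siRNA (siCtrl), with 2 libraries per group and line. In the TCF7 set, siRNA against TCF7 (siTCF7) was compared with another siCtrl, with 1 library per group and line. In the CRISPRi set, the guide sgMYB-E3 was compared with the control guide sgCtrl, also with 1 library per group and line. CRISPR interference represses transcription at the site a guide binds, and the sgMYB-E3 libraries are labelled as MYB knockdown. SNU719 was cultured in RPMI1640 and YCC10 in EMEM, so line and medium cannot be told apart. Nothing in the labels says that libraries of 1 group came from separate cultures, so p-values measure only the spread between these libraries, which may be technical.

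Keratins are the intermediate filament proteins of epithelial cells. A filament is built from pairs of an acidic type I keratin and a basic type II keratin, and a keratin without a partner is usually degraded. KRT8 (type II) with KRT18 (type I) forms the basic network of simple epithelia such as the lining of the stomach, and KRT19, a small type I keratin, joins it in ductal and glandular cells. KRT7 and KRT20 are used in pathology to tell adenocarcinomas of different organs apart. KRT17 is known from basal cells and wounded skin, and KRT23 and KRT80 are less studied keratins of type I and type II.

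The values are FPKM, fragments scaled to transcript length and to the mapped fragments of each library, so levels of different genes are compared per length, and the sequencing depth is unknown. Between 11176 and 12085 genes reached 1 FPKM in a library. The 4 MYB-set libraries numbered 1 stood apart: their FPKM summed to 530695 to 653826, against 857784 to 1360020 in the other 12. Each control and each knockdown of the MYB set holds 1 library of both numbers. The epithelial origin was visible in the markers, since 9 of 10 epithelial genes other than keratins had a mean of at least 1 FPKM in both lines. Of 10 stomach markers only 2 in SNU719 and 4 in YCC10 did so, and GKN1 and GKN2 were listed at 0 in every library. Of 10 intestinal markers 5 in SNU719 and 3 in YCC10 did so, and the list summed to 407 to 791 and 5.57 to 31.2 FPKM. Of 12 squamous markers, some of them keratins, 4 in SNU719 and 5 in YCC10 did so. That list summed to 25.4 to 58.1 FPKM in SNU719 and 22.6 to 302 FPKM in YCC10. The highest value of 1 squamous marker in 1 library was 33.4 FPKM in SNU719 and 281 FPKM in YCC10. No fibroblast, endothelial or leukocyte marker had a mean of 1 FPKM in either line, and the summed level of any of these lists was at most 1.21 FPKM in a library. MYB stood at 45.7 and 44.2 FPKM in the SNU719 siCtrl libraries of the MYB set and at 9.66 and 8.45 FPKM with siMYB. In YCC10 it stood at 29.4 and 27.3 FPKM with siCtrl and at 1.95 and 1.43 FPKM with siMYB. TCF7 was 26.9 FPKM with siCtrl and 7.99 FPKM with siTCF7 in SNU719, and 22.6 and 4.14 FPKM in YCC10. sgMYB-E3 left MYB at 38.5 percent of its control in SNU719 and at 58.4 percent in YCC10, a shared log2 change of -1.03 that limma did not call (adjusted p = 0.981).

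Levels of the 8 keratins spanned several orders of magnitude in the control libraries, and KRT8 and KRT18 were among the most abundant transcripts of both lines. KRT8 ranked between 6 and 33 among all genes of a library by FPKM, KRT18 between 7 and 47, and KRT19 between 57 and 153. KRT8 and KRT18 together made up 86.3 to 90.9 percent of the summed FPKM of the 8 keratins in SNU719 and 75.7 to 84.6 percent in YCC10. In the 4 control libraries of SNU719, KRT8 lay between 2733 and 3539 FPKM, with a median of 3272. KRT18 lay between 2526 and 2930 FPKM there, and KRT19 between 570 and 780 FPKM. The order by mean level in SNU719 was KRT8, KRT18, KRT19, KRT23 (23.6 ± 4.76 FPKM, SD, n = 4), KRT80 (8.66 ± 2.58), KRT7 (1.18 ± 0.282) and KRT17 (0.0831 ± 0.120), with KRT20 listed at 0. Of neighbours in that order, KRT8 and KRT18 had overlapping ranges, and KRT17, at 0 in 1 control, reached down to KRT20. KRT23 is a sum of 2 nearly equal rows, and its gap to the KRT80 range rests on that sum.

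YCC10 held the same 3 abundant keratins, with another order below them. Its order was KRT8 (2197 ± 633 FPKM, SD, n = 4), KRT18 (1846 ± 349), KRT19 (706 ± 201), KRT80 (53.2 ± 20.1), KRT7 (1.62 ± 0.390), KRT17 (0.744 ± 0.303) and KRT23 (0.176 ± 0.0810). KRT8 and KRT18 again overlapped, and KRT20 was again listed at 0.

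The lines were compared over the 8 control libraries with limma on log2(FPKM + 1), a scale that understates the change of weakly expressed genes, with the set as covariate. KRT23 was lower in YCC10 by far. It was listed at 22.6, 25.0, 29.1 and 17.7 FPKM in the SNU719 controls and at 0.155, 0.209, 0.266 and 0.0759 FPKM in those of YCC10, with no overlap. The difference was -4.37 on the log2 scale (SE 0.0860, limma adjusted p = 4.05e-07). KRT80 went the other way, with 8.40, 10.9, 10.2 and 5.13 FPKM in SNU719 and 53.2, 57.1, 75.5 and 26.8 FPKM in YCC10. The lowest YCC10 control exceeded the highest SNU719 control, and the log2 difference was 2.44 (SE 0.119, limma adjusted p = 1.16e-05).

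KRT8 and KRT18 were both moderately lower in YCC10, by nearly the same amount. KRT8 differed by -0.58 (SE 0.101, limma adjusted p = 0.00278), although its highest YCC10 control (2767 FPKM) exceeded its lowest SNU719 control (2733 FPKM), each from a different set. KRT18 differed by -0.56 (SE 0.114, limma adjusted p = 0.00559), and its controls did not overlap. KRT19 differed by 0.03, with a 95% interval from -0.19 to 0.24, and KRT7 by 0.26, with an interval from -0.08 to 0.61, and neither passed the test. In all, 1 of 6 tested keratins was higher and 3 were lower in YCC10, where 64 percent of 12187 genes tested differed, 30.4 percent as higher and 33.6 percent as lower. KRT17 and KRT20 were under the mean of 1 FPKM that a test required, in this and every other comparison. KRT17 lay between 0 and 0.261 FPKM in the SNU719 controls and between 0.304 and 0.995 FPKM in those of YCC10.

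**Figure D1:**
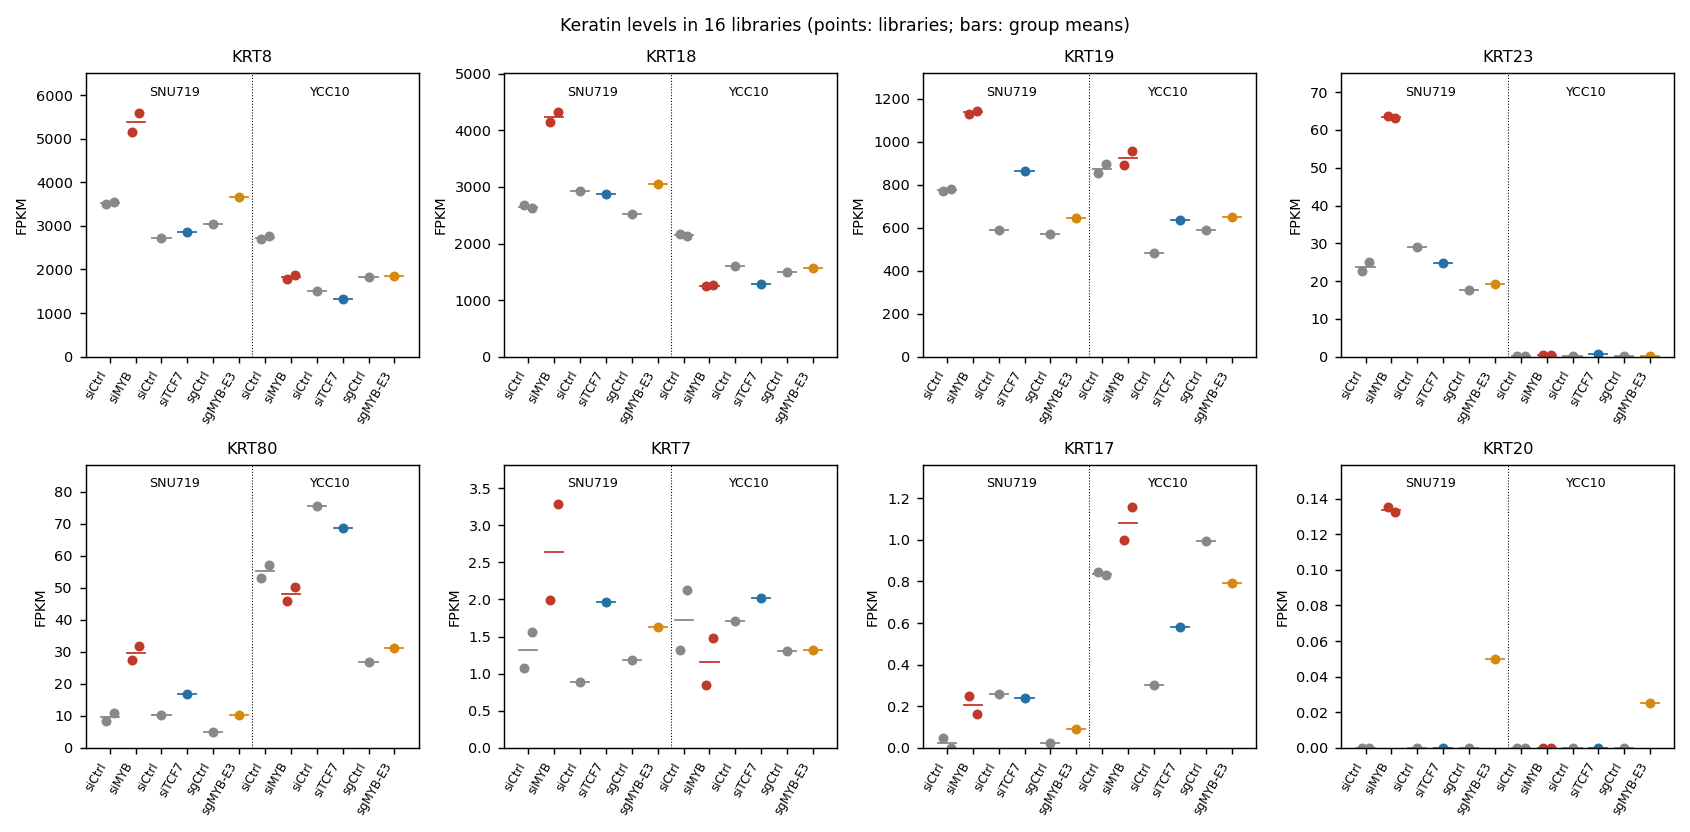
FPKM of the 8 keratins in each of the 16 libraries, by line and group; the groups stand in the order MYB set, TCF7 set and CRISPRi set, points are libraries and short bars are group means. The siMYB libraries of SNU719 are above all other SNU719 libraries for KRT8, KRT18, KRT19, KRT23 and KRT80, while those of YCC10 are below their own siCtrl for KRT8 and KRT18.

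Knockdown of MYB raised keratins in SNU719. Of the 6 keratins tested, 5 rose (KRT8, KRT18, KRT19, KRT23 and KRT80) and none fell, with a median log2 change of 0.66 over the 6. Among all 12095 genes tested in the MYB set, 22.6 percent were called in SNU719, 8.04 percent as higher and 14.6 percent as lower, with a median change of -0.06. The keratins were chosen with earlier results of these data known, so the count is only described beside that share. The 3 abundant keratins rose by 1.47-fold to 1.60-fold, KRT23 by 2.67-fold and KRT80 by 3.06-fold. In RNA from whole cultures, more cells of a kind and more RNA per cell cannot be told apart.

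The filament pair rose together. KRT8 was listed at 3503 and 3539 FPKM with siCtrl and at 5159 and 5593 FPKM with siMYB, and the groups did not overlap. Its mean rose 1.53-fold, by 0.61 on the log2 scale (SE 0.0571, limma adjusted p = 0.00212). KRT18 stood at 2678 and 2624 FPKM with siCtrl and at 4148 and 4320 FPKM with siMYB, again without overlap. Its mean rose 1.60-fold, by 0.67 (SE 0.0441, limma adjusted p = 0.000784). The summed FPKM of the 8 keratins went from 6984 and 6980 to 10529 and 11156 in these libraries, while the share of KRT8 and KRT18 in that sum stayed between 88.3 and 88.9 percent.

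KRT19, the additional type I keratin, was listed at 771 and 780 FPKM with siCtrl and at 1128 and 1145 FPKM with siMYB. Both siMYB libraries were above both controls, and the change was 0.55 (SE 0.0529, limma adjusted p = 0.00223). KRT23, a type I keratin, was at 22.6 and 25.0 FPKM with siCtrl and at 63.8 and 63.1 FPKM with siMYB. The groups were far apart, and its change was 1.38 (SE 0.0645, limma adjusted p = 0.000309). This test pooled the spread of both lines, and KRT23 was under 1 FPKM in YCC10, so its SE and p-value can be too small for SNU719. KRT23 stands on 2 rows that hold equal values in 14 of 16 libraries, so summing them doubled its level and hardly touched its FPKM ratios. On the log2(FPKM + 1) scale the doubling enlarges changes at low levels, as in YCC10. The line difference of the siTCF7 effect was 0.63 with the sum and 0.46 with the higher row.

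KRT80, a type II keratin, had the largest change of the set. It was listed at 8.40 and 10.9 FPKM with siCtrl and at 27.5 and 31.7 FPKM with siMYB, a change of 1.53 (SE 0.132, limma adjusted p = 0.00176). KRT7, the other weakly expressed type II keratin, was 1.07 and 1.56 FPKM with siCtrl and 1.99 and 3.29 FPKM with siMYB. Its groups did not overlap either, but the change of 0.64 did not pass the test (95% interval 0.00 to 1.28, limma adjusted p = 0.135). With 2 libraries per group a lack of overlap is a weak criterion, and how many of all genes met it was not counted. With a term for the replicate number, which this fit lacked, KRT7 was called. In the libraries numbered 2 alone, an alternative chosen after seeing the data that leaves 1 library per group and so no test, the changes were 0.66 for KRT8, 0.72 for KRT18, 0.55 for KRT19, 1.30 for KRT23 and 1.46 for KRT80.

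KRT20 and KRT17 were near the floor of the measurement. KRT20, a keratin of intestinal and gastric surface cells, was listed at 0 in every SNU719 control and at 0.135 and 0.132 FPKM with siMYB, the sum of 2 equal rows. Outside these libraries it was above 0 only with sgMYB-E3, at 0.0501 FPKM in SNU719 and 0.0250 FPKM in YCC10. KRT17 was at 0.0470 and 0 FPKM with siCtrl and at 0.247 and 0.161 FPKM with siMYB in SNU719. No fold change is given for these values.

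In YCC10 the same knockdown lowered the KRT8 and KRT18 pair. Of 6 keratins tested, these 2 fell and the other 4 did not pass, with a median log2 change of -0.26. Called genes were 41.8 percent of all tested in this line, 15.3 percent as higher and 26.5 percent as lower. This fit had no term for the replicate number. With such a term within each line, KRT19 and KRT23 were also called as higher and KRT7 and KRT80 as lower. KRT8 was listed at 2697 and 2767 FPKM with siCtrl and at 1786 and 1876 FPKM with siMYB. The groups were apart, and KRT8 fell to 67.0 percent of its control, a log2 change of -0.58 (SE 0.0571, limma adjusted p = 0.00104). KRT18 was listed at 2160 and 2132 FPKM with siCtrl and at 1247 and 1263 FPKM with siMYB. It fell to 58.5 percent of its control, by -0.77 (SE 0.0441, limma adjusted p = 0.000238).

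KRT19 was not called in YCC10. It was 855 and 895 FPKM with siCtrl and 892 and 956 FPKM with siMYB, groups that overlapped, and its change of 0.08 had a 95% interval from -0.05 to 0.21 (limma adjusted p = 0.292). Its share of the summed keratin FPKM thereby went from 14.8 and 15.3 percent to 22.5 and 23.0 percent. KRT80 was 53.2 and 57.1 FPKM with siCtrl and 45.9 and 50.2 FPKM with siMYB, groups that did not overlap. Its change was -0.20 (95% interval -0.52 to 0.13, limma adjusted p = 0.286). KRT23 was at 0.155 and 0.209 FPKM with siCtrl and at 0.348 and 0.364 FPKM with siMYB, also without overlap. Its mean was 1.96-fold its control, but at this level the change is only 0.20 on the log2(FPKM + 1) scale (limma adjusted p = 0.0534). With a pseudocount of 0.1 the change was 0.70 and was called (limma adjusted p = 0.00452). Median-of-ratios scaling called KRT23 (0.23, limma adjusted p = 0.0327) and KRT19 (0.20, limma adjusted p = 0.0153) as higher. KRT7 changed by -0.33 without passing the test (95% interval -0.97 to 0.30, limma adjusted p = 0.355).

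The difference between the lines in the siMYB effect was tested directly, as the effect in YCC10 minus that in SNU719. It was negative for all 6 tested keratins and called for 5, where 19 percent of all genes were called, 8.65 percent as higher and 10.3 percent as lower. KRT80 differed by -1.72 (SE 0.187, limma adjusted p = 0.00465) and KRT18 by -1.45 (SE 0.0624, limma adjusted p = 0.000739). KRT8 and KRT23 differed by -1.19 and -1.18 (limma adjusted p = 0.0014 and 0.00195). KRT23 was under 1 FPKM in YCC10, where the log2(FPKM + 1) scale understates a change. Its siMYB mean was 2.67-fold its control in SNU719 and 1.96-fold in YCC10. For KRT23 a pseudocount of 0.1 gave -0.71 (limma adjusted p = 0.0317). KRT19 differed by -0.47 (limma adjusted p = 0.0126), a call that was lost without either SNU719 siCtrl library (limma adjusted p = 0.0512 and 0.0531). Quantile normalization left KRT8 at -0.66 and KRT19 at -0.40, neither called (limma adjusted p = 0.128 and 0.0703). KRT7 differed by -0.97 and did not pass (95% interval -1.87 to -0.07, limma adjusted p = 0.125). With a term for the replicate number KRT7 was called here too. For KRT8 and KRT18 the effects had opposite signs in the 2 lines, each past the threshold.

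MYB itself also changed by different amounts, -2.19 in SNU719 and -3.45 in YCC10 on the log2 scale, a difference of -1.26 (limma adjusted p = 0.00671). The part of this in the keratin differences was not tested. Quantile normalization, which forces every library onto the same distribution, kept the siMYB signs of KRT8 and KRT18. It ended the calls of KRT8 in SNU719 and YCC10 (0.36 with limma adjusted p = 0.200, and -0.29 with limma adjusted p = 0.236). It also ended that of KRT18 in YCC10 (-0.50, limma adjusted p = 0.0647). The cause was not tested.

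**Figure D2:**
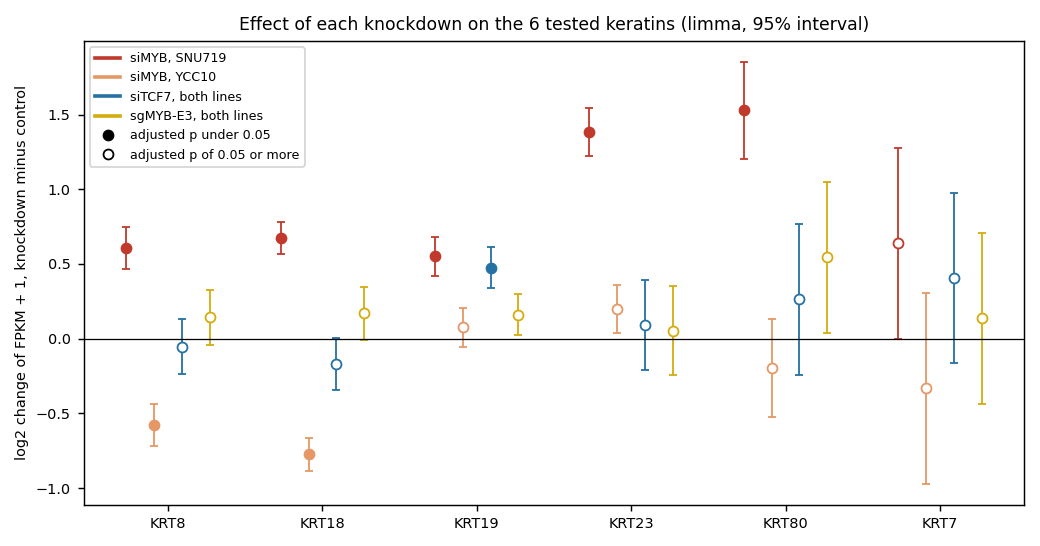
Log2 change of FPKM + 1 (knockdown minus control) for the 6 tested keratins under each knockdown, with limma 95% intervals; filled points passed the adjusted threshold and open points did not. KRT8 and KRT18 lie above 0 with siMYB in SNU719 (0.61 and 0.67) and below 0 in YCC10 (-0.58 and -0.77), and KRT19 is the keratin called with siTCF7 (0.47).

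Knockdown of TCF7 changed 1 of the 6 tested keratins over both lines, KRT19, which rose. In this comparison 24.6 percent of 12290 genes were called, 11.4 percent as higher and 13.2 percent as lower. With 1 library per group and line, this test took its spread from the replicates of the MYB set and from how far the lines differed. KRT19 was 589 FPKM with siCtrl and 864 FPKM with siTCF7 in SNU719, and 484 and 637 FPKM in YCC10. It rose to 147 percent of its control in SNU719 and to 132 percent in YCC10, and the shared change was 0.47 (SE 0.0589, limma adjusted p = 0.0042).

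The KRT8 and KRT18 pair did not pass. KRT8 was 2733 and 2854 FPKM in SNU719 and 1496 and 1331 FPKM in YCC10, control first, a shared change of -0.05 (95% interval -0.24 to 0.13, limma adjusted p = 0.666). KRT18 was 2930 and 2873 FPKM in SNU719 and 1597 and 1290 FPKM in YCC10, a change of -0.17 (95% interval -0.34 to 0.01, limma adjusted p = 0.140). Without either TCF7-set library of SNU719, where the effect rests on YCC10 alone, KRT18 was called at -0.31 (limma adjusted p = 0.0292 and 0.0290) and KRT23 at 0.41 (limma adjusted p = 0.0136 and 0.0135).

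KRT80 was 10.2 and 16.8 FPKM in SNU719 and 75.5 and 68.5 FPKM in YCC10, so its values went up in one line and down in the other, and its shared change of 0.26 did not pass (95% interval -0.24 to 0.77). KRT7 changed by 0.41 (95% interval -0.16 to 0.98) and KRT23 by 0.09 (95% interval -0.21 to 0.39), neither past the threshold. The lines differed in the siTCF7 effect for 1 keratin, KRT23, where 7.21 percent of genes were called, 2.71 percent as higher and 4.5 percent as lower. KRT23 was 29.1 FPKM with siCtrl and 24.7 FPKM with siTCF7 in SNU719, and 0.266 and 0.679 FPKM in YCC10, a difference in effect of 0.63 (limma adjusted p = 0.0469), and 1.32 with a pseudocount of 0.1 (limma adjusted p = 0.0341). Each arm is 1 library, so the test has no replicate of its own and takes its spread from the MYB set. That call was lost when any 1 of the 8 MYB-set libraries was left out, with limma adjusted p from 0.0502 to 0.0946. It was also lost with the higher of the 2 KRT23 rows in place of their sum (0.46, limma adjusted p = 0.0808) and with no filter on low values (limma adjusted p = 0.0508). MYB was lower with siTCF7 too, at 56.0 percent of control in SNU719 and 21.1 percent in YCC10, a shared change of -1.43 (limma adjusted p = 0.0113) that was not called on SNU719 alone, without either TCF7-set library of YCC10 (-0.81, limma adjusted p = 0.0900).

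With sgMYB-E3 none of the 6 tested keratins was called by limma, and KRT19 and KRT80 were under 0.05 before adjustment. Among all genes 0.0325 percent were called, 0.00814 percent as higher and 0.0244 percent as lower (4 of 12290 genes, with 461 under 0.05 before adjustment). MYB, the targeted gene, was not called either. KRT8 was 3040 FPKM with sgCtrl and 3655 FPKM with sgMYB-E3 in SNU719, and 1829 and 1857 FPKM in YCC10. KRT18 was 2526 and 3058 FPKM in SNU719, and 1496 and 1561 FPKM in YCC10. KRT80 was 5.13 and 10.3 FPKM in SNU719, and 26.8 and 31.2 FPKM in YCC10. For these 3 the sgMYB-E3 library had the higher value in both lines, as it had for KRT19 and, barely in YCC10 (1.312 and 1.314 FPKM), for KRT7. KRT23 was higher in SNU719 and slightly lower in YCC10. How many of all genes were higher in both lines was not counted, so these directions are only described.

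The fitted changes with sgMYB-E3 were 0.14 for KRT8 (95% interval -0.04 to 0.33), 0.17 for KRT18 (-0.01 to 0.34), 0.16 for KRT19 (0.03 to 0.30), 0.55 for KRT80 (0.04 to 1.05), 0.14 for KRT7 (-0.43 to 0.71) and 0.05 for KRT23 (-0.24 to 0.35). The difference between the lines in this effect was called for none of the 6 (0.773 percent of all genes were called, and 580 genes were under 0.05 before adjustment, none of them a tested keratin). The mean siMYB effect of both lines exceeded the sgMYB-E3 effect for KRT23 alone among the 6, by 0.74 (SE 0.159, limma adjusted p = 0.0285), where 9.25 percent of genes differed, 2.87 percent as higher and 6.38 percent as lower. With a pseudocount of 0.1 it was 1.01 and not called (limma adjusted p = 0.0832), nor was it called with no filter (limma adjusted p = 0.0560). The call ended when any 1 MYB-set or CRISPRi library was left out, with limma adjusted p from 0.05003 to 0.201. For KRT8 and KRT18, whose siMYB effects had opposite signs in the 2 lines, this mean is no measure of either line. The siMYB effects in SNU719 and YCC10 also lay apart for KRT23 (1.38 and 0.20), KRT80 (1.53 and -0.20), KRT7 (0.64 and -0.33) and KRT19 (0.55 and 0.08). The mean thus describes neither line for these keratins. The same contrast for MYB itself was -1.79, and the part of this in the keratin values was not tested.

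KRT8 and KRT18 moved together across the libraries. The ratio of KRT8 to KRT18 FPKM lay between 0.933 and 1.35 in SNU719 and between 0.937 and 1.49 in YCC10. Its lowest 4 values, 0.933 to 1.03, were the 4 libraries of the TCF7 set, control and knockdown alike. After the mean of its own line and set was subtracted from each library, KRT8 and KRT18 correlated at r = 0.986 over the 16 libraries, and at 0.992 in the 8 of SNU719 and 0.993 in the 8 of YCC10. These libraries share sets, controls and the same scaling, so the coefficients are descriptions. Among 12290 genes none was closer to KRT8 than KRT18, and the next were LGALSL (0.973) and LINC01559 (0.938). KRT18 likewise had KRT8, LGALSL (0.975) and LINC01559 (0.954) as its nearest genes.

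The other keratins had other neighbours. Nearest to KRT19 were TNFRSF21 (r = 0.986), TMEM86A (0.980) and TRIB1 (0.972). KRT23 was nearest to IGFL1 (0.973), CYB5B (0.971) and LYPD3 (0.966), KRT80 to JPH1 (0.971), TPBG (0.958) and SYT1 (0.957), and KRT7 to GADD45B (0.956), C19orf33 (0.953) and TNFRSF12A (0.938). Without the subtraction, where the levels of the lines enter, some of these turned negative, such as KRT80 with JPH1 (-0.79), TPBG (-0.76) and SYT1 (-0.52), KRT8 and KRT18 with LINC01559 (-0.55 and -0.52) and KRT23 with IGFL1 (-0.08). Between KRT18 and KRT19 the coefficient was 0.80 over the 8 SNU719 libraries and -0.45 over the 8 YCC10 libraries. Between KRT18 and KRT23 it was 0.96 and -0.76.

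**Figure D3:**
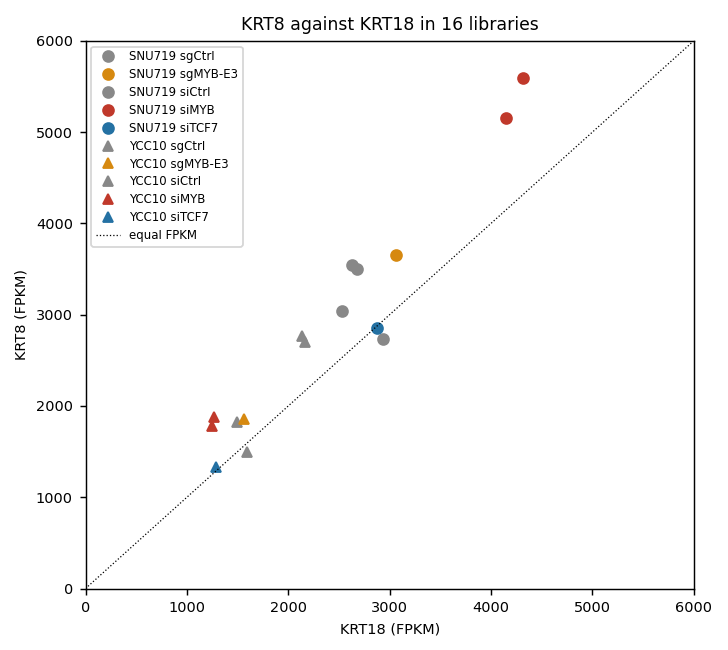
KRT8 against KRT18 in FPKM for the 16 libraries, circles for SNU719 and triangles for YCC10, coloured by group, with a dotted line at equal FPKM. The siMYB libraries are at the upper end for SNU719 (KRT8 at 5159 and 5593 FPKM) and at the lower left for YCC10 (KRT18 at 1247 and 1263 FPKM).

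In the GENCODE annotation of GRCh38, the build named hg38 in the submitters' processing notes, KRT8 lies on chromosome 12 from 52897187 to 52949954 on the minus strand. KRT18 lies beside it from 52948871 to 52952901 on the plus strand, and both gene models overlap by 1084 bases. KRT18 is the type I keratin that sits in the type II cluster, with KRT7 (52232520 to 52252186) and KRT80 (52168996 to 52192000) on the same chromosome. KRT17, KRT19, KRT20 and KRT23 lie in the type I cluster on chromosome 17. The library kit keeps strand, but the use of strand in quantification is not given in the sources used here, so reads in the overlap of KRT8 and KRT18 could have been assigned to either gene.

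Sequence shared with other genes was also measured. Of the 50-base windows of the longest KRT18 transcript, 28.9 percent occur in transcripts of other genes, led by the pseudogenes KRT18P11, KRT18P10 and KRT18P17. The share was 1.88 percent for KRT8, led by LY9, TLCD2 and RICTOR, and 1.79 percent for KRT19. The only KRT18 pseudogene in the table, KRT18P55, took at most 0.142 percent of the FPKM of parent and pseudogene together, and the KRT8 pseudogene, KRT8P41, at most 0.0539 percent. KRT18P55 is not among the leading sharers, so its low level cannot show how many reads those pseudogenes took or gave. KRT18P55 was 0.0313 to 0.159 FPKM in the 4 MYB-set libraries numbered 1 and 1.25 to 4.51 FPKM in the other 12, without overlap.

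The table holds 49 further keratins, of which 7 had a mean of at least 1 FPKM and were tested: KRT5, KRT6A, KRT6B, KRT6C, KRT10, KRT13 and KRT15. KRT5, the type II keratin of basal cells in stratified epithelia, and the KRT6 genes, type II keratins known from wounded and fast-growing epithelia, were found in YCC10. KRT5 was listed at 0 in all SNU719 libraries, and KRT6A, KRT6B and KRT6C reached at most 0.129, 0.0617 and 0.0447 FPKM there. In the YCC10 controls KRT6B lay between 154 and 224 FPKM, KRT6C between 37.5 and 53.5 FPKM, KRT6A between 19.9 and 33.2 FPKM and KRT5 between 7.36 and 10.3 FPKM. The members of the 8-keratin set thus held 99.8 to 99.9 percent of all keratin FPKM in SNU719 and 93.2 to 96.9 percent in YCC10. Between 39.1 and 53.6 percent of the 50-base windows of a KRT6 gene occur in other genes, chiefly the other KRT6 genes, so the split of reads among them is uncertain.

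All 4 of these genes fell with siMYB in YCC10, where 41.8 percent of all genes tested were called, 26.5 percent as lower. KRT6B was 221 and 224 FPKM with siCtrl and 91.3 and 85.1 FPKM with siMYB, a change of -1.33 (SE 0.0578, limma adjusted p = 0.00015). KRT5 fell by 1.20, KRT6A by 1.27 and KRT6C by 1.32, with limma adjusted p of 0.000929, 0.0198 and 0.00247. These tests pool the spread of both lines, and SNU719, at or near 0 for the 4 genes, added almost none. Their SEs and p-values can therefore be too small for YCC10. The KRT6A siCtrl values in YCC10 were 19.9 and 33.2 FPKM. The KRT6A call was lost without YCC10 siCtrl 2 (-0.92, limma adjusted p = 0.0773) or siMYB 1 (-0.91, limma adjusted p = 0.0788). Their siMYB means stood between 37.7 and 39.6 percent of their controls, against 67.0 percent for KRT8 and 58.5 percent for KRT18. KRT15, a type I keratin of basal cells, rose in both lines, by 0.81 in YCC10 and 0.87 in SNU719 (limma adjusted p = 0.00275 and 0.0052). KRT13, a type I keratin of mucosal squamous epithelium, rose in YCC10 from 2.14 and 1.81 FPKM to 4.09 and 3.96 FPKM, by 0.76 (limma adjusted p = 0.00175). KRT13 was at most 0.143 FPKM in SNU719, which likewise added little spread to that test. KRT10 rose in SNU719 by 0.27 (limma adjusted p = 0.026), a call lost without SNU719 siCtrl 1, siCtrl 2 or siMYB 1 or either YCC10 siCtrl library (0.21 to 0.28, limma adjusted p from 0.0501 to 0.115).

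With siTCF7 the same 4 genes were at 34.2 to 38.7 percent of their control in YCC10, from 1 library per group. KRT6B was 180 FPKM with siCtrl and 64.4 FPKM with siTCF7, and KRT5 was 8.71 and 2.98 FPKM. Over both lines, where SNU719 has no level to lose, none of the 4 passed, while 24.6 percent of all genes were called. The difference between the lines was called for KRT6B (-1.47) and KRT5 (-1.29), where 7.21 percent of all genes were called, 4.5 percent as lower. With SNU719 at or near 0, that difference repeats the change in YCC10 (-1.47 and -1.29), 1 library against 1. It cannot show whether the lines respond differently. The KRT5 call was lost without any 1 SNU719 MYB-set library or either YCC10 siCtrl of that set (limma adjusted p from 0.0535 to 0.0690) and with quantile normalization (-1.23, limma adjusted p = 0.0557), and that of KRT6B with a pseudocount of 0.1 (-1.49, limma adjusted p = 0.127). KRT10 rose over both lines by 0.46 (limma adjusted p = 0.0116), but was not called on SNU719 alone, without either TCF7-set library of YCC10 (0.28, limma adjusted p = 0.0921 and 0.0938). With sgMYB-E3 the 4 genes stood at 99.1 to 112 percent of sgCtrl in YCC10. In these YCC10 libraries MYB was at 5.95 percent of control with siMYB, 21.1 percent with siTCF7 and 58.4 percent with sgMYB-E3, and its part in the keratin values was not tested.

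**Figure D4:**
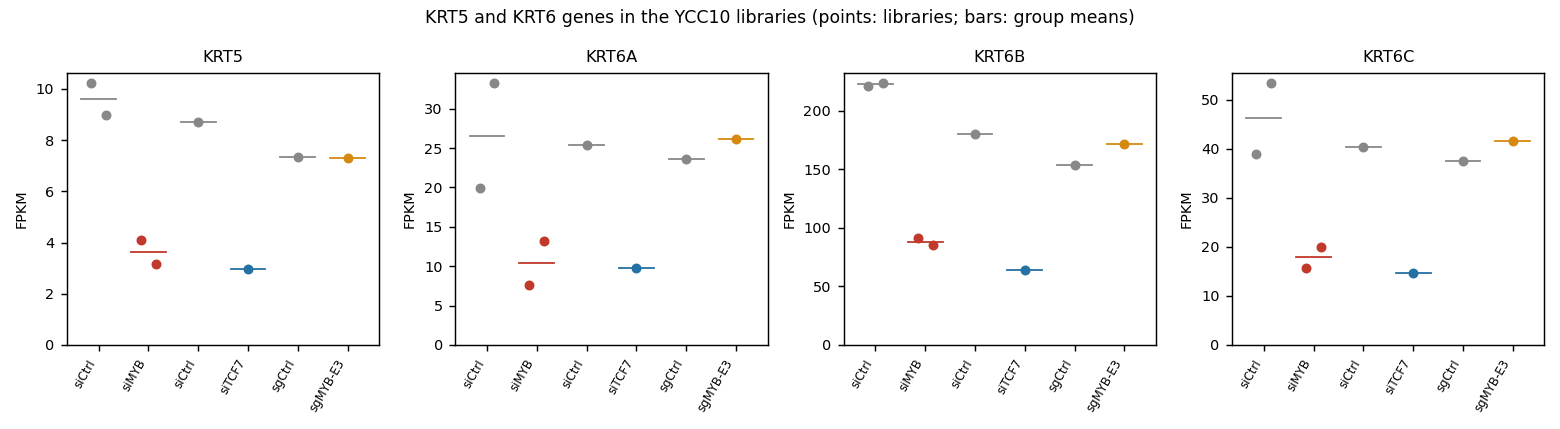
FPKM of KRT5, KRT6A, KRT6B and KRT6C in the YCC10 libraries, in the order MYB set, TCF7 set and CRISPRi set; points are libraries and short bars are group means. The siMYB and siTCF7 libraries are below every control, with KRT6B at 85.1 to 91.3 FPKM and 64.4 FPKM, and the sgMYB-E3 library is beside its control.

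Keratin filaments are anchored by desmosomes and hemidesmosomes and cross-linked by plakins, and 17 of 22 such genes were tested. In SNU719 8 rose with siMYB and none fell, with a median change of 0.29, where 22.6 percent of all genes were called. The largest were PPL (periplakin, 1.25), PLEC (plectin, 0.58) and DST (dystonin, 0.54). In YCC10 3 rose and 2 fell, with a median of 0.02, where 41.8 percent of all genes were called. PPL rose there as well (1.31), while PLEC, which links keratin to hemidesmosomes, fell by 0.60 and DSG2, a desmosomal cadherin, fell by 0.46. The difference between the lines was called for 6 (19 percent of all genes), 5 of them negative, with PLEC (-1.18), DST (-0.69) and COL17A1 (-0.65) the largest. The COL17A1 call was lost without SNU719 siCtrl 1 (-0.61, limma adjusted p = 0.0510). With siTCF7 5 rose and 1 fell, where 24.6 percent of all genes were called, with COL17A1, the hemidesmosomal collagen, at 0.91, PKP2 (plakophilin) at -0.89 and PPL at 0.82. With the effect resting on 1 line alone, these changes lay from 0.68 to 1.14, from -1.21 to -0.57 and from 0.66 to 0.98.

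Among other intermediate filament genes 4 of 10 were tested. LMNB1, which encodes nuclear lamin B1, fell by 0.39 in SNU719 and 0.68 in YCC10 with siMYB, and by 1.21 with siTCF7 over both lines. That siTCF7 change was -0.54 on SNU719 alone and -1.88 on YCC10 alone, a line difference of -1.34 from 1 library per group and line. Of 22 epithelial transcription factors 19 were tested. The shares of all genes called were again 22.6 percent with siMYB in SNU719, 41.8 percent in YCC10 and 24.6 percent with siTCF7. In SNU719 4 rose and 6 fell with siMYB, led by EHF (0.99), OVOL1 (-0.80) and GRHL3 (0.47). In YCC10 3 rose and 6 fell, led by GRHL3 (0.87), OVOL2 (-0.75) and KLF5 (-0.46). With siTCF7 KLF4 rose by 0.53 and TFAP2A fell by 0.41. Calls that rested on 1 library were LMNB1 and GRHL3 in SNU719, lost without siCtrl 1 (-0.36 and 0.40, limma adjusted p = 0.0623 and 0.0513) or siMYB 1 (-0.33 and 0.40, limma adjusted p = 0.0503 and 0.0509). KLF5 in YCC10 was lost without siCtrl 1 or siMYB 2 (-0.36 and -0.35, limma adjusted p = 0.132 and 0.125). TFAP2A was lost on YCC10 alone, without either TCF7-set library of SNU719 (-0.31, limma adjusted p = 0.0568 and 0.0565). With sgMYB-E3 limma called none of the 40 tested genes in these 3 lists, and 7 were under 0.05 before adjustment, as were 3.75 percent of all genes.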

How the data were processed

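RNA was prepared with a stranded poly(A) kit, per the labels' protocols. Per the submitters' processing notes, bcl2fastq 2.20.0, HISAT2 2.1.0 and Cufflinks 2.2.1 were used with hg38. Not given in the sources used here were their settings and the annotation. The deposited values are FPKM in 1 table of 33648 rows, with 0 columns of other samples. Rows of 1 symbol were summed. FPKM carries no counts, so the depth is unknown.

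Tests used limma 3.58.1 (lmFit, eBayes with trend) run in R 4.3.3. The scale was log2(FPKM + 1), and a gene needed an average of 1 FPKM or more across the fitted libraries. P-values were adjusted by Benjamini-Hochberg over all genes tested (threshold 0.05). The 8 MYB-set libraries were fitted with 4 group means. Each fit took 1 spread per gene over both lines. For a gene near 0 in 1 line, that spread can be too small for the other line. Effects of siTCF7 and of sgMYB-E3 were estimated from all 16 libraries, with terms for line and set; their single libraries are assumed to vary as the MYB-set ones do. Their line differences came from 12 group means, and the 8 controls were fitted with line and set.

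The keratins and gene lists were chosen with earlier results of these data known. Named are the 8 keratins, MYB, TCF7, further keratins with a mean of 1 FPKM, up to 3 called genes of each list with the largest change per comparison, member pseudogenes, and the 3 genes nearest to each tested keratin by Pearson r. Alternatives were another pseudocount, no filter, 2 rescalings, 2 replicate blocks, the highest row per symbol and each library left out. The scripts were tested on simulated data.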

Additional observations from a re-analysis of the deposited data

Results flagged for a closer look

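The siMYB effect differed between the lines by the test of the difference itself (YCC10 minus SNU719, log2) for KRT8 (-1.19), KRT18 (-1.45), KRT19 (-0.47), KRT23 (-1.18) and KRT80 (-1.72). KRT8 and KRT18 rose in SNU719 and fell in YCC10, while KRT19, KRT23 and KRT80 rose in SNU719. In YCC10 the latter were not called by the main fit, which has no term for the replicate number. KRT23 lay under 1 FPKM in YCC10, where a pseudocount of 0.1 in place of 1 gave a called change of 0.70 and a line difference of -0.71 (limma adjusted p = 0.00452 and 0.0317). The siTCF7 effect differed for KRT23 (0.63), from 1 library per group and line, so the test has no replicate of its own and takes its spread from the MYB set.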

How the results depend on the processing

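Over the alternatives that kept all libraries, 341 of 372 keratin values kept their sign and their side of the threshold. Changed numbers of called keratins were as follows. With no filter, the line difference of sgMYB-E3 called 1 keratin, that of siTCF7 called 0 and siMYB minus sgMYB-E3 called 0; the last was also 0 with a pseudocount of 0.1, and the siTCF7 line difference was 0 with the highest row per symbol. Median-of-ratios scaling gave 4 called keratins for siMYB in YCC10 (KRT19 at 0.20 and KRT23 at 0.23 joined), and quantile normalization gave 0 there and 3 for the siMYB line difference, without KRT8 and KRT19. Quantile normalization turned KRT19 in the siTCF7 line difference (0.068), KRT18 in siMYB minus sgMYB-E3 (0.15), KRT8 with siTCF7 (0.11) and TCF7 with siMYB in YCC10 (0.041; 0.064 with median-of-ratios), and a pseudocount of 0.1 turned KRT7 in siMYB minus sgMYB-E3 (-0.021); none of these was called, and the cause was not tested. The share of higher calls with siMYB was 35.5 percent in SNU719 and 36.6 percent in YCC10, and became 51.1 and 53.5 percent with median-of-ratios scaling and 46.6 and 50.6 percent with quantile normalization.

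The labels do not say what the replicate numbers stand for, and the main fit had no term for them. The 4 MYB-set libraries numbered 1 shared a low summed FPKM and a low KRT18P55 in both lines and both arms. The differences between numbers 1 and 2 correlated between siCtrl and siMYB at 0.342 in SNU719 and 0.438 in YCC10. With a replicate block within each line, siMYB called 4856 genes in SNU719 and 4352 in the line difference, and 6 keratins in YCC10 (KRT19 and KRT23 as higher, KRT7 and KRT80 as lower besides KRT8 and KRT18); the siTCF7 line difference called 2124 genes and 2 keratins, and siMYB minus sgMYB-E3 0 keratins. With the replicate block as 1 term shared by both lines these were 5269, 4750 and 4 keratins, then 2900 genes and 3 keratins, with 2087 genes for siMYB minus sgMYB-E3. KRT7 was called with siMYB in both lines under either replicate block. All genes called without a filter were 608 for the sgMYB-E3 line difference, 1430 for that of siTCF7 and 8 for sgMYB-E3.

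Leaving out 1 library at a time gave 1113 to 2323 called genes for siMYB in SNU719, 972 to 1418 for its line difference, 630 to 4307 for siTCF7, 502 to 884 for its line difference, 3 to 40 for sgMYB-E3 and 150 to 2475 for siMYB minus sgMYB-E3. Called keratins were 1 to 3 for siTCF7, 0 to 1 for its line difference and 0 to 1 for siMYB minus sgMYB-E3. The sign turned for KRT19 between controls (-0.015 to 0.13), KRT7 (-0.12 to 0.15) and KRT80 (-0.22 to 0.45) in siMYB minus sgMYB-E3, KRT23 with sgMYB-E3 (-0.0040 to 0.11), TCF7 with siMYB in YCC10 (-0.13 to 0.023), and KRT23 (-0.23 to 0.41), KRT8 (-0.17 to 0.063) and KRT80 (-0.14 to 0.67) with siTCF7. The 4 libraries numbered 1 could not be left out together in a test, since 1 library per group would remain. Single libraries per group and unknown depth limit what the TCF7 and CRISPRi sets can show.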
